A study of Mus musculus with 2 samples.

Results

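The genes described here are 7 CC chemokine ligands that attract monocytes and other myeloid cells, Ccl2, Ccl7, Ccl12, Ccl8, Ccl6, Ccl9 and Ccl24, together with Ccr2, the receptor that Ccl2, Ccl7 and Ccl12 act through. They were taken by symbol, and all 8 were found among the 32285 genes listed in each library. Their transcripts were followed by cell class, by macrophage and fibroblast subset and by library in mouse pancreatic tumours. The tumours grew from KPC pancreatic cancer cells placed in the pancreas and were collected at day 21. The control library came from Porcnfl/fl mice, and the knockout library from littermates that carried Csf1r-Cre;Porcnfl/fl. Both groups therefore carried the floxed Porcn allele, and only the knockout mice carried Cre. Csf1r-Cre is active in macrophages and related myeloid cells, so the implanted tumour cells and the host fibroblasts were not its labelled target. The tumours of 5 mice were pooled into 1 library for each genotype, and the age of the mice is not given in the sources used here. With 1 library per group, no difference below has a replicate check or a p-value, and mice cannot be told apart within a library.

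CC chemokines are small secreted proteins that bind G protein-coupled receptors on leukocytes and direct their movement along a gradient. CCR2 is the receptor with which Ly6C-high monocytes leave the bone marrow and enter inflamed tissue and tumours, and its ligands include CCL2 (MCP-1), CCL7 (MCP-3) and, in the mouse, CCL12 (MCP-5). CCL8 (MCP-2) acts in the mouse mainly through CCR8, CCL6 and CCL9 act through CCR1, and CCL24 (eotaxin-2) acts through CCR3 on eosinophils. Porcn, the deleted gene, encodes the acyltransferase that adds the lipid without which Wnt proteins are not secreted.

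The 4 ligand genes of the monocyte chemoattractant protein group lay within 81.2 kb of chromosome 11 (GRCm38, plus strand): Ccl2 at chr11:82035571-82037453, Ccl7 at chr11:82045712-82047525, Ccl12 at chr11:82101845-82103400 and Ccl8 at chr11:82115185-82116799. Ccl9, at chr11:83572919-83578636, and Ccl6, at chr11:83587882-83593087, lay on the minus strand of the same chromosome within 20.2 kb. Ccl24 lay at chr5:135569937-135573049 on the minus strand, and Ccr2 at chr9:124101950-124113557 on the plus strand. The RefSeq table (build GRCm38.p6) held the promoter of 5 of the 8 genes. The 250 bases before the start are printed for the neighbours Ccl12 and Ccl8, which had like patterns over the cell classes, and for the neighbours Ccl9 and Ccl6, which were both lower in knockout macrophages. Each is written 5′ to 3′ on the strand of the gene, and capitals mark matches to the motifs searched, which are named in the next paragraph.
Ccl12, chr11:82101595-82101844, plus strand: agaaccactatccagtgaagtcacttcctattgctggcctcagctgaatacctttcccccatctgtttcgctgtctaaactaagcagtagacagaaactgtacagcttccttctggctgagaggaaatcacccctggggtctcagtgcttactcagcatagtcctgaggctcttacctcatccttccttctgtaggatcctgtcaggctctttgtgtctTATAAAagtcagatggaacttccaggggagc
Ccl8, chr11:82114935-82115184, plus strand: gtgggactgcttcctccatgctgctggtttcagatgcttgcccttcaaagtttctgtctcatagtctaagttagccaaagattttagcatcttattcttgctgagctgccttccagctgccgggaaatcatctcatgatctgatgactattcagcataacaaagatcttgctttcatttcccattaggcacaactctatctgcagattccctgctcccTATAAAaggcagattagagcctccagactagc
Ccl9, chr11:83578637-83578886, minus strand: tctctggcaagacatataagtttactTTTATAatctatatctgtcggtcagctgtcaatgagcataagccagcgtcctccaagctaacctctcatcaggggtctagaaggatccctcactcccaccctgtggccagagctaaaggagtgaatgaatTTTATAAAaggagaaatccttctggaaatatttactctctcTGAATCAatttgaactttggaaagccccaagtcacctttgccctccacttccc
Ccl6, chr11:83593088-83593337, minus strand: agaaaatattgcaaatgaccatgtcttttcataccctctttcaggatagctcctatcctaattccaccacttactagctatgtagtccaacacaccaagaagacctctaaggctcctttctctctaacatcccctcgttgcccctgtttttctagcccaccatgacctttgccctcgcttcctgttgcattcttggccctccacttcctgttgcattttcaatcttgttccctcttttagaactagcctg

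A TATA box (TATAAA, searched on both strands) began 31 bases before the start of Ccl12 and 32 bases before that of Ccl8. In Ccl9 the same letters began 92 bases before the start, and their reverse complement stood at 94 bases, overlapping them, and again at 224 bases. An AP-1 motif (TGANTCA), the site of Fos and Jun proteins, stood 53 bases before the start of Ccl9. Of 32851 promoters in the table, 13.6% held a TATA box and 7.81% an AP-1 motif in a window from 250 bases before to 50 after the start. The letters of an NF-kB site (GGGA and CC with 4 free bases between, in 20.7% of all promoters), of an interferon-stimulated element (GAAA on both sides of 2 free bases, 3.44%) and of a gamma-activated site (TTCNNNGAA, 8.30%) were in none of the 5 windows. None of the 5 motifs was in the window of Ccl6 or of Ccr2.

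After filtering, 11516 control cells and 10467 knockout cells remained, with medians of 12167.5 and 10109 unique molecular identifiers (UMIs, counts of single transcripts) per cell. The libraries shared 46 barcodes, 38 of them among kept cells. Cells were grouped without the 8 genes, and groups were called "-like" from fixed marker genes. In the monocyte/macrophage-like class the 10 markers that name it summed to 7800 and 9403 CPM, and the epithelial markers to 510 and 224 CPM, where CPM stands for UMIs per 1000000 UMIs of the class. That class held 510 control and 549 knockout cells, the fibroblast-like class 409 and 712, the epithelial/tumour-like class 9448 and 5762 and the neutrophil-like class 293 and 185. Porcn had 1212 UMIs over all kept control cells and 637 over all kept knockout cells. It was sparse in the macrophages, with 8 UMIs in the control and 4 in the knockout library (3.22 and 1.42 CPM, 95% intervals 1.39 to 6.35 and 0.387 to 3.63). The reads lie near the 3′ end, and whether they fall inside the deleted part is not given in the sources used here, so these counts do not check the deletion. Levels below are CPM of the class. All 95% intervals are exact and cover counting error only. A gene was called higher or lower when its level differed by at least 1.5-fold between the libraries, with at least 20 UMIs over both.

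Macrophages had the highest CPM for 7 of the 8 genes in the control library and for 6 in the knockout library, among classes of at least 30 cells. CPM is relative to the UMIs of a class, and depth per cell differed between classes, so the order per cell can differ. In the control library, mesothelial-like cells held 1474 Ccl2 and 941 Ccl7 UMIs in 261 cells. Macrophages held 2511 and 1493 in 510 cells. Ccl2 was also carried by tumour cells, mesothelial-like cells and fibroblasts, whereas Ccl12, Ccl24, Ccl6 and Ccl9 were carried mostly by macrophages. Ccl2 had 1012 CPM in control macrophages, 297 in mesothelial-like cells, 206.5 in fibroblasts and 142 in tumour cells, and these 4 levels stood apart beyond their counting intervals. In the knockout library Ccl2 had 1185 CPM in macrophages, 372 in mesothelial-like cells, 212 in tumour cells and 31.1 in fibroblasts, so fibroblasts had moved below tumour cells in the order. The mesothelial-like value of the knockout library rested on few cells, since 99.4% of its Ccl2 UMIs were in 5 of 52 cells. In T-like cells, which should not make it, Ccl2 had 9.06 and 5.17 CPM. Such low counts in lymphocytes can come from free RNA in the droplets, which was not tested.

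**Figure D1:**
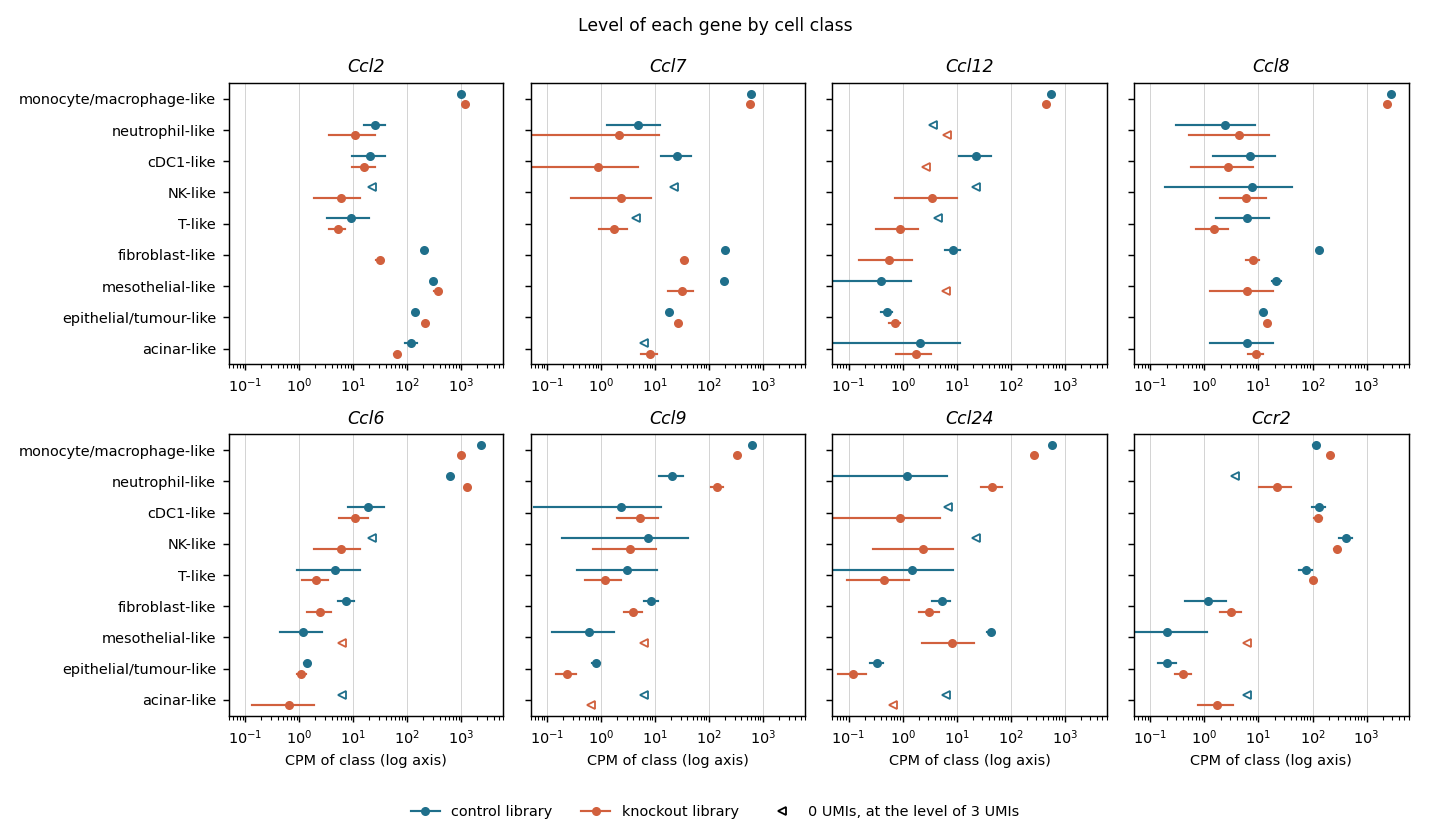
Level of each of the 8 genes (CPM of the class, log axis) in 9 cell classes, with points for the control and knockout libraries, bars for exact 95% Poisson intervals of counting error and open triangles at the level of 3 UMIs where a class had 0. The monocyte/macrophage-like point is the highest of the classes drawn for every ligand except Ccl6 in the knockout library, where neutrophil-like cells reached 1297 CPM, and the highest Ccr2 points belong to NK-like cells.

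Ccl7 had 602 CPM in control macrophages, 197.5 in fibroblasts and 189 in mesothelial-like cells, and the last 2 did not differ beyond counting error. Ccl8 had 2799 CPM in control macrophages, 130 in fibroblasts, 21.5 in mesothelial-like cells and 11.9 in tumour cells. Ccl12 was narrower, with 548.5 CPM in control macrophages and 23.2 in cDC1-like cells, a class of dendritic cells, as the next level. Ccl24 had 579.5 CPM in control macrophages and 42.7 in mesothelial-like cells, the next level. Ccl6 had 2372.5 CPM in control macrophages and 620 in neutrophil-like cells, against 1.39 in tumour cells. In the knockout library that order turned in CPM, and neutrophil-like cells stood 1.285-fold above macrophages for Ccl6 (1297 and 1010 CPM). In UMIs per cell it did not turn, with 599 Ccl6 UMIs in 185 neutrophil-like cells and 2847 in 549 macrophages. The turn in CPM also depended on the cell grouping. With the strict cell filter described below, knockout neutrophil-like cells had 822 CPM and macrophages 889. When each cell was named from its own markers, they had 1000 and 1062 CPM.

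Because tumour cells were by far the most numerous, the level in a class and its part of all transcripts differed. Tumour cells held 79.7% of the Ccl2 UMIs of the control library and 82.95% of those of the knockout library, although their level was low. Macrophages held 9.36% and 13.3% of Ccl2, and 23.7% and 35.8% of Ccl7. They held 89.2% and 88.3% of Ccl12, 71.98% and 80.7% of Ccl8, 86.4% and 71.6% of Ccl6, 87.5% and 75.7% of Ccl9, and 82.45% and 92.1% of Ccl24. The part of Ccl6 in neutrophil-like cells was 7.51% in the control and 15.1% in the knockout library. Shares of this kind depend on how many cells of each class were captured, which the digestion and the enrichment for live cells can set.

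**Figure D2:**
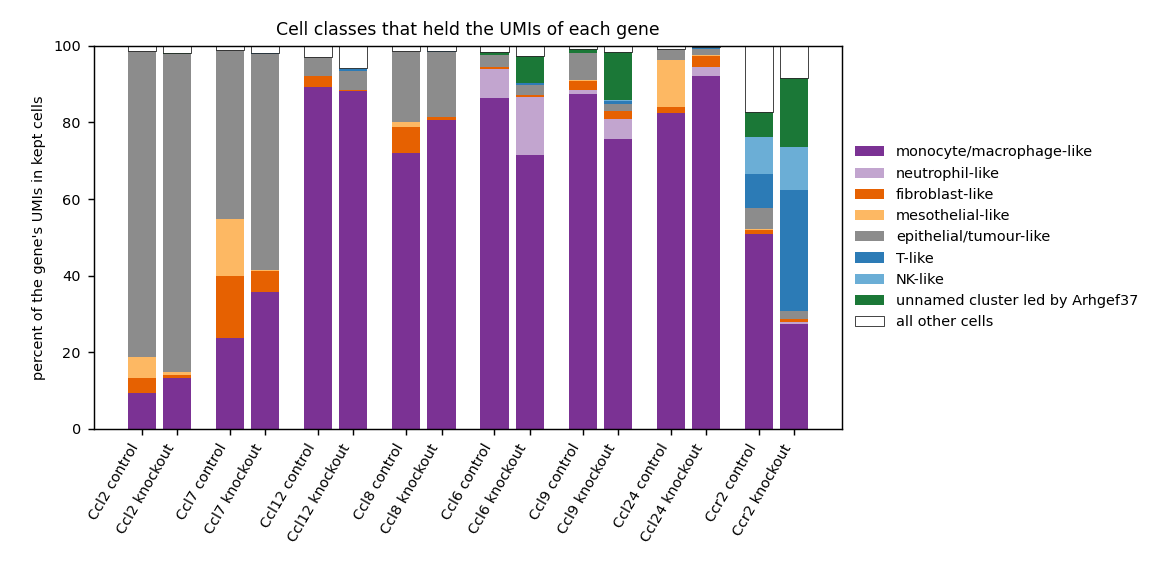
Percent of each gene's UMIs that lay in each cell class, 1 bar per library, with all remaining cells in white. Ccl2 bars are mostly tumour cells (79.7% and 82.95%), bars of Ccl12, Ccl8, Ccl6, Ccl9 and Ccl24 are mostly macrophages, and the Ccr2 bars go from 51.0% macrophages in the control to 27.3% in the knockout library.

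Between the libraries, macrophages of the knockout library had less Ccl6, Ccl9 and Ccl24 and more Ccr2, while the CCR2 ligands Ccl2, Ccl7 and Ccl12 and also Ccl8 stayed within 1.5-fold. Of the 8 genes, 3 were lower and 1 was higher, against 11.2% of all 10302 genes read in this class that were lower and 8.45% that were higher. The median log2 ratio of knockout to control was -0.26 over the 8 genes and -0.03 over all genes read.

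Ccl2, the main monocyte attractant, had 2511 UMIs in control and 3341 in knockout macrophages, 1012 and 1185 CPM (ratio 1.17, 1.11 to 1.23). Ccl7 had 1493 and 1648 UMIs, 602 and 584.5 CPM (ratio 0.971, 0.905 to 1.04). Ccl12 had 1361 and 1249 UMIs, 548.5 and 443 CPM (1.24-fold lower, 1.15 to 1.34). These 3 CCR2 ligands thus lay within 1.5-fold between the libraries, although with the strict cell filter described below Ccl2 had 618 and 1051 CPM and was called higher (ratio 1.70). Ccl8 had 6945 and 6830 UMIs, 2799 and 2422 CPM (1.155-fold lower, 1.12 to 1.195), so it was nearly level as well. Ccl8 and Ccl12 were held by few very rich cells: the 5 richest cells carried 43.6% of the Ccl8 UMIs in the control and 34.4% in the knockout library, and 36.9% and 20.2% of those of Ccl12. Without those 5 cells in each library Ccl8 had 1627 and 1634 CPM and Ccl12 had 357 and 363.5 CPM.

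Ccl6, a CCR1 ligand made by myeloid cells, had 5887 UMIs in control and 2847 in knockout macrophages, 2372.5 and 1010 CPM, and was 2.35-fold lower (2.25 to 2.46). Ccl9, its neighbour and also a CCR1 ligand, had 1542 and 954 UMIs, 621 and 338 CPM, and was 1.84-fold lower (1.69 to 1.99). Ccl24, the CCR3 ligand often linked to alternatively activated macrophages, had 1438 and 765 UMIs, 579.5 and 271 CPM, and was 2.14-fold lower (1.955 to 2.335). A smaller share of knockout macrophages carried these transcripts. With each cell thinned to 1000 UMIs, Ccl6 was found in 39.7% of control (35.4 to 44.2) and 27.7% of knockout macrophages (23.95 to 31.7). Ccl9 was found in 26.8% (23.0 to 30.9) and 17.5% (14.4 to 20.95), and Ccl24 in 14.3% (11.4 to 17.7) and 5.58% (3.79 to 7.87). Thinning left out 14 control and 11 knockout cells, and before it the shares were 56.3% and 47.9% for Ccl6, 47.25% and 38.8% for Ccl9, and 21.0% and 8.93% for Ccl24. Macrophages had median depths of 2887 and 4038 UMIs. In thinned T-like cells (median depths 2823 and 3342), Ccl6 was found in 0 of 180 control cells, which allows a share of up to 1.67%, and in 0.315% of knockout cells. Ccl9 was found in 0.556% and 0.126% of them, and Ccl24 in 0 of 180 and 0 of 1587, which allows up to 1.67% and 0.189%.

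**Figure D3:**
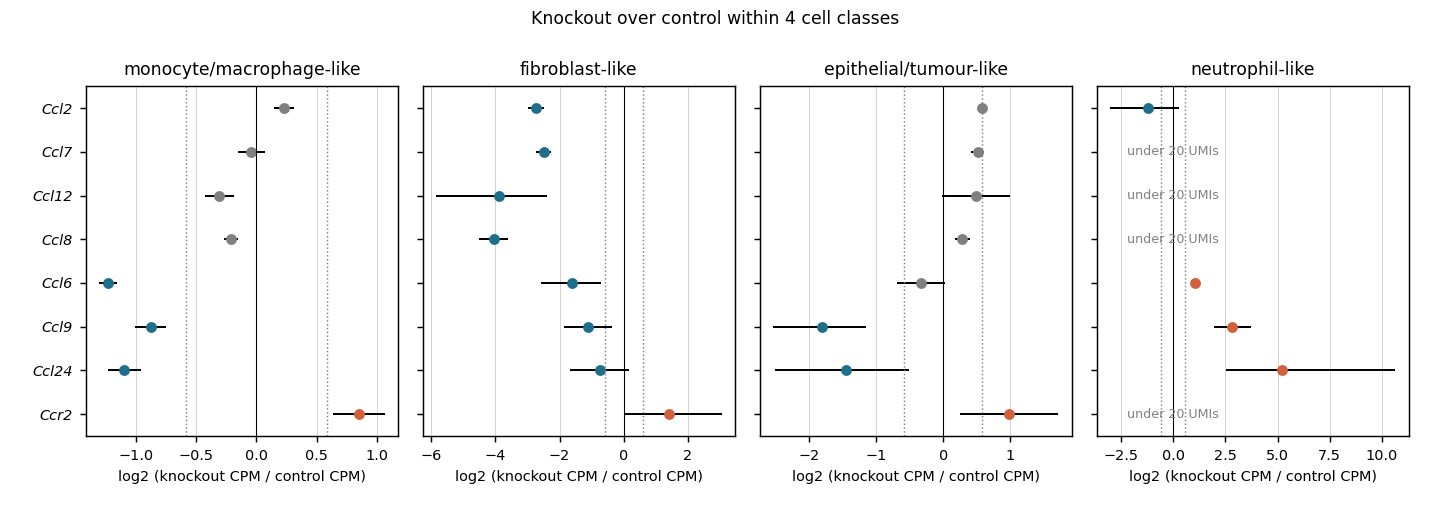
The log2 ratio of knockout to control CPM for each gene in 4 cell classes, with bars for exact 95% intervals of counting error and dotted lines at 1.5-fold, orange for higher and blue for lower. Ccl6, Ccl9 and Ccl24 lie left of the line in macrophages and fibroblasts and right of it in neutrophil-like cells, and Ccl2, Ccl7 and Ccl8 lie at -2.73, -2.50 and -4.05 in fibroblasts.

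These lower values depended on which cells were called macrophages. With a strict cell filter Ccl6 had 1332 CPM in the control and 889 in the knockout library, a 1.50-fold difference just inside the threshold, Ccl9 had 343 and 289 CPM and Ccl24 had 327 and 235 CPM, so none of the 3 was called, while Ccl2 and Ccr2 were called higher. At Leiden resolution 2 Ccl9 had 414 and 284 CPM and was not called either. With the strict filter the control class held 4444190 UMIs in 459 cells, against 2481381 in 510 cells in the main grouping. The summed epithelial markers were at 2908.5 CPM in it against 510 CPM. At Leiden resolution 2 the control class held 3754946 UMIs in 581 cells, with epithelial markers at 2032 CPM. The part of these transcripts in the result was not tested. Over all 12 alternatives the difference ranged from 1.50- to 2.42-fold lower for Ccl6, 1.19 to 1.89 for Ccl9 and 1.39 to 3.395 for Ccl24.

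Ccr2, which marks monocytes newly arrived from blood, had 288 UMIs in control and 589 in knockout macrophages, 116 and 209 CPM, 1.80-fold higher (1.56 to 2.08). In thinned cells it was found in 12.7% (9.90 to 15.96) of control and 19.5% (16.25 to 23.1) of knockout macrophages, and before thinning in 25.3% and 41.35%. In thinned tumour cells, which should lack it, the shares were 0.0213% and 0.0349%, at median depths of 13290.5 and 14980.5 UMIs. Given the same subset weights in both libraries, Ccr2 had 127 and 177 CPM, a ratio of 1.40, which is inside the threshold. The Ly6c2 monocyte-like subset made up 71 of 510 control and 147 of 549 knockout cells of the class.

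Within the macrophage class the genes fell to different subsets (5 subsets of at least 30 cells in each library). Ly6c2 monocyte-like cells were the richest in Ccl2, with 2216 and 2200 CPM in the control and knockout libraries. Richest here means the highest CPM of the subset, not the most UMIs per cell. C1q macrophage-like cells were the richest in Ccl8, with 5215 and 5134.5 CPM, and had the least Ccl2 of the 3 named subsets, 505 and 378.5 CPM. Arg1 macrophage-like cells were the richest in Ccl24, with 1596 and 735 CPM. An unnamed subset led by Gng11, which also carried Folr2 and keratin transcripts, had the most Ccl6 in the control library, 3899 CPM. Ccl8 was nearly missing from Ly6c2 monocyte-like cells, with 2 UMIs in the control and 23 in the knockout library (9.12 and 37.5 CPM). Subset sizes were 71 and 147 cells (Ly6c2), 92 and 66 (Arg1), 112 and 138 (C1q), 130 and 82 (led by Gng11) and 105 and 106 (led by Gm26917, with shallow cells of 1613 and 1541.5 median UMIs). Members were kept out of the genes that grouped the cells into classes and subsets.

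**Figure D4:**
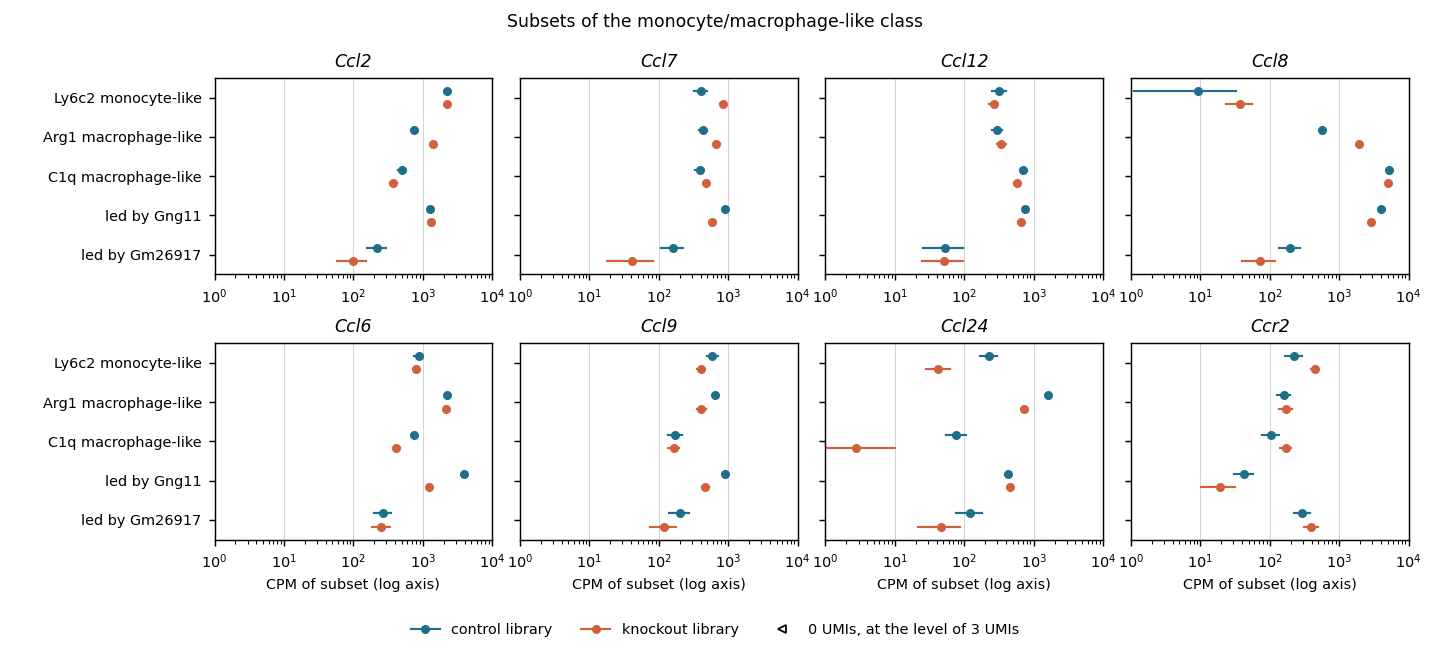
Level of each gene (CPM of the subset, log axis) in 5 subsets of the monocyte/macrophage-like class, with exact 95% Poisson intervals of counting error and 1 point per library. Ccl2 is highest in Ly6c2 monocyte-like cells (2216 and 2200 CPM), Ccl8 in C1q macrophage-like cells (5215 and 5134.5 CPM) and Ccl24 in Arg1 macrophage-like cells (1596 and 735 CPM).

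The difference between the libraries was not spread evenly over the subsets. Ccl6 went from 3899 to 1233 CPM in the subset led by Gng11 (3.16-fold lower, 2.94 to 3.40) and from 744.5 to 416 CPM in C1q macrophage-like cells (1.79-fold lower, 1.53 to 2.09). It was nearly level in Arg1 macrophage-like cells (2252 and 2173 CPM) and in Ly6c2 monocyte-like cells (876 and 802 CPM). The border between these subsets depended on the cell grouping, and levels by subset are given for the main grouping only. With called doublets kept, the Arg1 macrophage-like subset had 310 cells, with Mmp13 and Rnf128 among its leading genes. In the main grouping those 2 genes were among the leading genes of the subset led by Gng11. The subset led by Gng11 carried epithelial markers at 814 CPM in the control and 348 CPM in the knockout library, and their part in its Ccl6 value was not tested. Ccl9 was lower in that subset (897.5 and 470 CPM, 1.91-fold, 1.69 to 2.17) and in Arg1 macrophage-like cells (651 and 412 CPM, 1.58-fold, 1.33 to 1.89). In the shallow subset led by Gm26917 it had 38 and 23 UMIs (200.6 and 118.6 CPM, 1.69-fold lower, 0.982 to 2.97). Ly6c2 monocyte-like cells had 593 and 403 CPM of Ccl9 (1.47-fold lower, 1.18 to 1.83), just inside the threshold. In C1q macrophage-like cells Ccl9 was level, with 173 and 164 CPM.

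Ccl24 was lower in the 3 named subsets and in the shallow subset led by Gm26917 (121 and 46.4 CPM), and not in the subset led by Gng11. It went from 1596 to 735 CPM in Arg1 macrophage-like cells (2.17-fold lower, 1.92 to 2.46) and from 228 to 42.4 CPM in Ly6c2 monocyte-like cells (5.38-fold lower, 3.29 to 9.005). In C1q macrophage-like cells it had 37 control and 2 knockout UMIs (27.7-fold lower, 7.13 to 237). In the subset led by Gng11 it had 422 and 458 CPM. With equal subset weights in both libraries the whole class was 1.92-fold lower for Ccl6, 1.66-fold lower for Ccl9 and 1.675-fold lower for Ccl24, so all 3 calls stood.

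The CCR2 ligands and Ccl8, level over the whole class, did differ inside some subsets. Arg1 macrophage-like cells of the knockout library had more Ccl2 (757 and 1384 CPM, 1.83-fold, 1.62 to 2.07), more Ccl7 (435 and 677 CPM, 1.56-fold, 1.32 to 1.84) and more Ccl8 (569 and 1902 CPM, 3.34-fold, 2.94 to 3.81). Ly6c2 monocyte-like cells had more Ccl7 (406 and 830 CPM, 2.04-fold, 1.63 to 2.59). The subset led by Gng11 had less Ccl7 (913 and 587 CPM, 1.56-fold lower, 1.39 to 1.75). The shallow subset led by Gm26917, lower in Ccl9 and Ccl24 above, also had less Ccl2 (42 and 19 UMIs), Ccl7 (30 and 8) and Ccl8 (37 and 14). Ccl12 stayed within 1.5-fold in all 5 subsets, with levels from 52.8 to 749 CPM in the control and from 51.6 to 654 CPM in the knockout library. Ccr2 was higher in the Ly6c2 monocyte-like cells of the knockout library (223.5 and 445 CPM, 1.99-fold, 1.47 to 2.76) and in C1q macrophage-like cells (104 and 170 CPM, 1.63-fold, 1.17 to 2.32), level in Arg1 macrophage-like cells (159 and 171 CPM) and lower in the subset led by Gng11 (44 and 14 UMIs).

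Single macrophages, thinned to 1000 UMIs, often carried neighbouring ligands together. Ccl2 and Ccl7 were found together in 59 of 496 control cells, where 132 had Ccl2 and 98 had Ccl7. In the knockout library 82 of 538 cells had both, 163 had Ccl2 and 117 had Ccl7. Among cells with Ccl9, 73.7% of the control and 59.6% of the knockout cells also had Ccl6. Ccl8 and Ccl12 were found together in 42 of the 81 control cells with Ccl12 and in 34 of 81 in the knockout library. Ccr2 and Ccl8 met rarely, in 7 cells of each library, with 63 and 105 cells carrying Ccr2. These pairs share cell type and depth, so they describe co-occurrence only.

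Fibroblast-like cells showed the largest difference in the CCR2 ligands among the 4 classes compared. All 7 ligands were lower in the knockout library and Ccr2 was higher, with Ccl2, Ccl7 and Ccl8 the only ones of the 7 with over 100 UMIs, against 8.36% of 12745 genes read in fibroblasts that were lower and 14.5% that were higher. Ccl2 had 1057 UMIs in control and 218 in knockout fibroblasts, 206.5 and 31.1 CPM, 6.64-fold lower (5.74 to 7.72). Ccl7 had 1011 and 245 UMIs, 197.5 and 34.9 CPM, 5.65-fold lower (4.91 to 6.53). Ccl8 had 664 and 55 UMIs, 130 and 7.84 CPM, 16.5-fold lower (12.55 to 22.2). In thinned cells Ccl2 was found in 4.91% of control and 1.70% of knockout fibroblasts, Ccl7 in 6.39% and 1.13% and Ccl8 in 5.90% and 0.849%. In thinned T-like cells Ccl2 was found in 1.67% and 0.693%, and Ccl7 and Ccl8 each in 0 of 180 (up to 1.67%) and in 0.252%. Before thinning, the shares in fibroblasts (median depths 10541 and 9127.5 UMIs) were 19.8% and 7.16% for Ccl2, 27.9% and 11.7% for Ccl7, and 32.0% and 6.18% for Ccl8.

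The remaining 4 ligands were scarce in fibroblasts. Ccl12 had 43 and 4 UMIs, and the 43 control UMIs came from 2 cells. At Leiden resolution 2, 2 control and 4 knockout fibroblast-like cells formed a cluster with Ccl12 and Ccl6 among its leading genes. The macrophage genes C1qa, C1qb, C1qc, Ms4a7 and Mrc1 were among its leading genes as well. The part of macrophage RNA in the fibroblast counts of Ccl12 and Ccl6 was not tested. Ccl6 had 38 and 17 UMIs (3.06-fold lower, 1.69 to 5.79), Ccl9 had 44 and 28 (2.15-fold lower, 1.31 to 3.59, but 1.25-fold at Leiden resolution 0.5) and Ccl24 had 27 and 22 (1.68-fold lower, 0.922 to 3.098). Thinned shares of Ccl6 were 0.246% and 0.141%, and those of Ccl24 were 0 of 407 cells (up to 0.737%) and 0.424%. Ccl6 had 7.42 and 2.42 CPM in fibroblasts, against 4.53 and 2.07 CPM in T-like cells. For Ccl24 the levels were 5.27 and 3.14 CPM, against 1.51 and 0.443 CPM in T-like cells. The part of background RNA in these levels was not tested. Ccr2 had 6 and 22 UMIs (2.68-fold higher, 1.05 to 8.07), in 4 and 6 cells. Without the 5 richest cells of each library, only Ccl2, Ccl7 and Ccl8 were still called lower in fibroblasts. They then had 106 and 12.98 CPM (Ccl2, 8.18-fold), 119.5 and 23.2 CPM (Ccl7, 5.14-fold) and 88.4 and 6.19 CPM (Ccl8, 14.3-fold). The 5 richest cells had held 49.95% and 58.7% of the Ccl2 UMIs.

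Macrophage RNA also moved in this class: the 10 monocyte/macrophage markers summed to 88.3 CPM in control and 53.5 CPM in knockout fibroblasts, with Ly6c2 at 0 in the control, and the epithelial markers to 549 and 201.5 CPM. The macrophage complement genes C1qa (9.57 and 2.57 CPM), C1qb (7.81 and 1.43 CPM) and C1qc (5.47 and 0.998 CPM) were lower as well. Their part in the result was not tested. Fibroblast markers were at 50673.5 and 33185.8 CPM in the class.

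The control fibroblasts held a cluster that the knockout library almost lacked. It was led by Tbx15 and had 109 control cells and 1 knockout cell, with 314 CPM of Ccl2, 379 of Ccl7 and 265 of Ccl8 in the control library. It held 43.5%, 55.0% and 58.6% of the control fibroblast UMIs of these 3 genes, and 71.6% of its cells had a Ccl8 UMI. Monocyte/macrophage markers summed to 96.1 CPM in it, with Adgre1, Ms4a7, Ly6c2 and Fcgr1 at 0. Without that cluster the class still had less Ccl2 (163 and 31.1 CPM, 5.26-fold), Ccl7 (124.6 and 34.9 CPM, 3.565-fold) and Ccl8 (75.3 and 7.84 CPM, 9.60-fold).

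Myofibroblast-like cells, 97 control and 253 knockout, differed in the same direction. Ccl2 had 175 and 35.65 CPM in them (4.915-fold lower, 3.88 to 6.26), Ccl7 had 198 and 40.75 CPM (4.855-fold, 3.89 to 6.08) and Ccl8 had 93.5 and 6.79 CPM (13.8-fold, 8.53 to 23.3). Monocyte/macrophage markers were at 155 and 56.0 CPM there. Inflammatory-like fibroblasts, 136 and 324 cells, had low levels in both libraries: 15.5 and 9.47 CPM of Ccl2 (17 and 24 UMIs, 1.64-fold lower, 0.826 to 3.18), 34.7 and 31.2 CPM of Ccl7 (1.11-fold lower, 0.735 to 1.66) and 21.9 and 11.4 CPM of Ccl8 (1.91-fold lower, 1.07 to 3.405). In adventitial-like fibroblasts 80 of the 83 control Ccl2 UMIs were in 1 cell. With equal weights for the subsets Ccl2 was 4.39-fold, Ccl7 3.83-fold and Ccl8 11.25-fold lower. The size of the Ccl2 difference depended on the cell grouping. Every other way of grouping the cells gave knockout fibroblasts more Ccl2 than the 31.1 CPM above, among them 51.2 CPM with the loose filter (188 in the control), 55.1 at Leiden resolution 2 (186 in the control), 56.8 with the strict filter (209 in the control) and 101.7 with called doublets kept (203 in the control). Over all 13 alternatives Ccl2 was 1.996- to 8.18-fold lower, past the threshold in each.

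**Figure D5:**
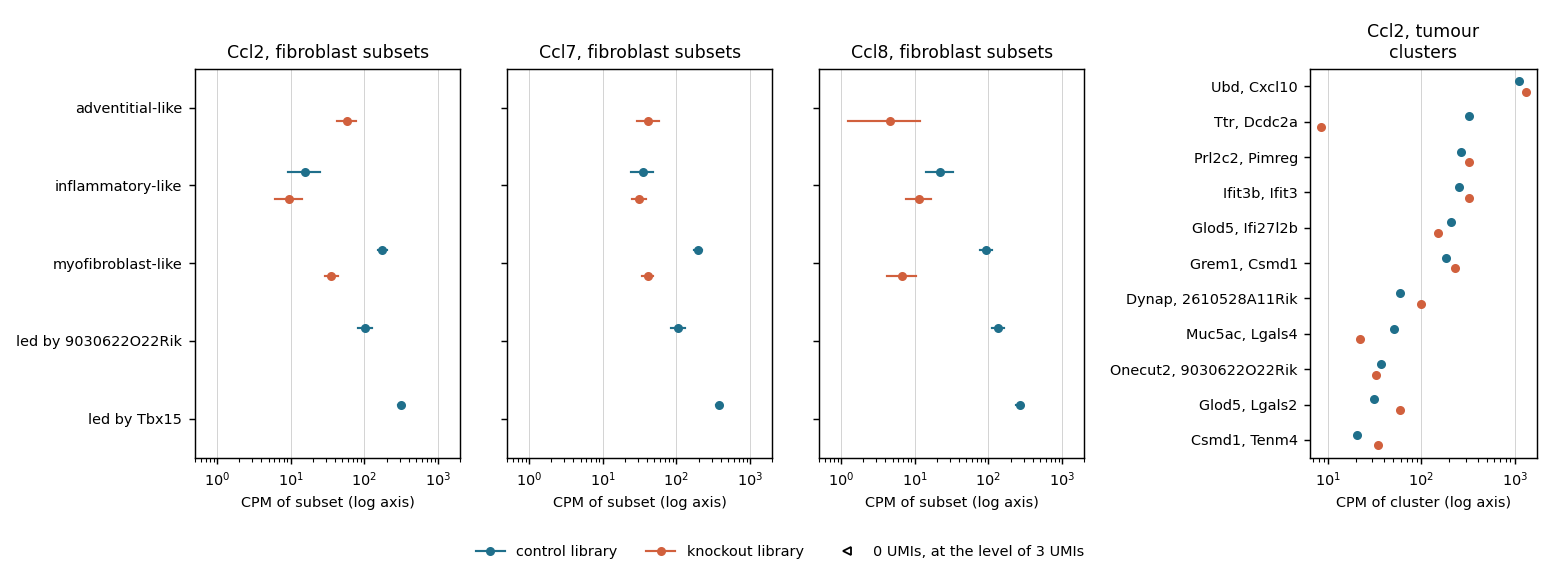
Left 3 panels: levels of Ccl2, Ccl7 and Ccl8 (CPM, log axis) in fibroblast subsets with at least 30 cells in a library, with exact 95% Poisson intervals of counting error. Right panel: Ccl2 level in tumour clusters with at least 30 cells in both libraries, named by leading genes. Control points lie right of knockout points in myofibroblast-like cells, and the tumour cluster led by Ubd stands apart at 1110 and 1331 CPM.

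Not every fibroblast chemokine was lower. Ccl11 (eotaxin-1), the neighbour of Ccl7 and Ccl12 in the same gene group, had 227 CPM in control and 239 CPM in knockout fibroblasts. Of the 11 other CC and CX3C ligands, 6 were read in fibroblasts, 3 were higher (Ccl3, Ccl4 and Ccl5) and 0 were lower. However, a fibroblast cluster led by Ube2c and Ccl5, with 13 control and 15 knockout cells, also carried the T cell transcripts Cd3g, Trbc2 and Trac. The small cluster with C1q genes at Leiden resolution 2, given above, had Ccl4 and Il1b among its leading genes. The part of leukocyte RNA in these 3 ligands and in Il1b was not tested. Csf1, the macrophage growth factor, had 136 and 145.3 CPM. Of 9 inducers and NF-kB feedback genes 7 were read. Il1b (0.781 and 5.99 CPM) and Il6 (6.45 and 12.97 CPM) were higher, and the inhibitors Nfkbia (110 and 69.7 CPM) and Tnfaip3 (11.3 and 5.28 CPM) were lower. Of 8 interferon-response genes, Isg15 (104.5 and 49.6 CPM) and Cxcl10 (26.4 and 11.8 CPM) were lower and 0 were higher.

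Tumour cells, by contrast, had somewhat more Ccl2 in the knockout library, just inside the threshold. Ccl2 had 21373 and 20899 UMIs, 142 and 212 CPM (ratio 1.49, 1.46 to 1.52), and Ccl7 had 18.5 and 26.3 CPM (1.43, 1.35 to 1.505). Of the 8 genes, Ccr2 was called higher and Ccl9 and Ccl24 lower, against 9.76% of 17417 genes read in tumour cells that were higher and 7.07% that were lower. Those 3 genes were near 0: Ccr2 had 31 and 40 UMIs, Ccl9 had 123 and 23 and Ccl24 had 50 and 12. In thinned tumour cells Ccl2 was found in 5.735% of control and 8.76% of knockout cells, and before thinning in 21.15% and 29.9%. Monocyte/macrophage markers summed to 14.4 and 16.6 CPM in this class.

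Ccl2 was uneven over the tumour clusters. In a cluster led by the interferon-inducible genes Ubd, Cxcl10 and Ifit3 (261 control and 296 knockout cells) it had 1110 and 1331 CPM against 1012 and 1185 CPM in macrophages. That cluster held 4813 of the 21373 control and 8030 of the 20899 knockout tumour UMIs of Ccl2, with monocyte/macrophage markers at only 10.4 and 9.95 CPM. Ccl7 in it had 135 and 87.4 CPM. Of the remaining clusters, 2 were lower in the knockout library: the one led by Muc5ac (51.6 and 22.1 CPM, 2.34-fold) and a small one led by Ttr, with 41 and 51 cells (322 and 8.37 CPM, 224 and 12 UMIs, 38.5-fold). Clusters led by Dynap (58.9 and 100.2 CPM, 1.70-fold), by Glod5 and Lgals2 (31.3 and 59.7 CPM, 1.91-fold) and by Csmd1 (20.65 and 34.3 CPM, 1.66-fold) were higher. The cluster led by Onecut2 had 37.0 and 32.55 CPM. When every cluster had the same weight in both libraries, Ccl2 had 167 and 184 CPM (ratio 1.101) and Ccl7 had 21.1 and 23.8 CPM (ratio 1.13). Ccl2 and Ccl7 were found together in 45 of 9399 thinned control tumour cells (539 with Ccl2, 117 with Ccl7) and in 43 of 5730 knockout cells (502 and 126).

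Neutrophil-like cells of the knockout library had more Ccl6. It had 512 UMIs in control and 599 in knockout cells, 620 and 1297 CPM, 2.09-fold higher (1.855 to 2.36), and 40.1% and 53.0% of thinned cells carried it (46.4% and 69.2% before thinning, median depths 1709 and 1874 UMIs). Of 4 members read in this class, 3 were higher and 1 was lower, against 16.4% of 5785 genes that were higher and 21.4% that were lower. Ccl9 had 17 and 66 UMIs (20.6 and 143 CPM, 6.94-fold higher, 4.02 to 12.6), and 14 knockout cells carried it. Without the 5 richest cells Ccl9 had 9.82 and 35.7 CPM (3.64-fold). Ccl24 had 1 control UMI and 21 knockout UMIs, the latter in 3 cells (ratio 37.5, 6.04 to 1552), and Ccl2 had 21 and 5 UMIs (ratio 0.426, 0.125 to 1.16). Without the 5 richest cells of each library Ccl24 had 0 UMIs in both. Over the alternatives that could be read, Ccl6 was 1.60- to 6.90-fold and Ccl9 1.76- to 57.2-fold higher. The size of the Ccl9 difference thus depended on the cell grouping. Ccl9 had 21.7 and 44.1 CPM with the loose filter, 19.0 and 43.75 with doublets kept and 20.7 and 44.5 at Leiden resolution 2. With the strict filter it had 3.61 and 206.5 CPM. Traces of macrophage RNA differed here too: C1qb had 2 and 21 UMIs and Apoe 17 and 47, while the summed monocyte/macrophage markers were at 625 and 461 CPM and the neutrophil markers at 157969.5 and 77607.1 CPM. Their part in the result was not tested.

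Over all kept cells, Ccr2 had 565 UMIs in the control and 2155 in the knockout library (3.35 and 16.7 CPM, 4.98-fold higher, 4.54 to 5.47). The number of lymphoid cells captured differed as well. Macrophages held 51.0% of the Ccr2 UMIs of the control and 27.3% of those of the knockout library, whereas T-like cells held 8.85% and 31.65% and NK-like cells 9.73% and 11.3%. There were 189 control and 1621 knockout T-like cells, and 37 and 243 NK-like cells. Per cell class the levels were nearer: NK-like cells had 410 and 286 CPM (1.44-fold lower, 1.05 to 1.93), T-like cells 75.5 and 101 CPM and cDC1-like cells 130 and 124.8 CPM. In the control library cDC1-like cells and macrophages did not differ in Ccr2 beyond counting error. An unnamed cluster led by Arhgef37, with Lyz2 and Ms4a6c, had 8 control and 95 knockout cells. The marker list it scored best on was that of cDC2, a class of dendritic cells. In the knockout library its monocyte/macrophage markers summed to 1786 CPM, against 9403 CPM in macrophages. Its Ccr2 level in the knockout library was 785 CPM, above every named class, and it held 17.9% of the Ccr2 UMIs there, with 559 CPM of Ccl6 and 326 CPM of Ccl9. In Ccl9 it did not differ from knockout macrophages beyond counting error.

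Other genes of the pathway placed these values in the macrophage class. Of 8 Ccr2 monocyte genes, all read, 5 were higher and 1 was lower in the knockout library (median log2 ratio 1.44). Ly6c2, the surface marker of classical monocytes, had 70.1 and 391 CPM, Plac8 had 431 and 1211 and Ms4a4c had 160 and 589, while Vcan had 52.0 and 23.8. Of 11 resident-type macrophage genes 9 were read: Apoe (3949 and 6744 CPM) and Ms4a7 (396 and 640) were higher, Folr2 (95.5 and 53.9) and Lyve1 (16.5 and 5.32) were lower, and the median was 0.15. Of 8 interferon-response genes 6 were higher and 0 lower (median 1.41), with Isg15 at 293 and 755 CPM and Cxcl10 at 180 and 551. Of 11 other CC and CX3C ligands 5 were read (median -0.05): Ccl4 (359 and 616 CPM) and Ccl5 (146 and 418) were higher, Ccl17 (27.4 and 8.51) was lower and Ccl3 (122 and 118) was level. Ccr1, the receptor of Ccl6 and Ccl9, differed little, with 201 and 202.5 CPM. Of 9 other receptors and decoy receptors 4 were read (median 0.11), and Ccrl2 was higher (67.3 and 163) with 0 lower. Of 9 inducers and NF-kB feedback genes 8 were read, with Tnf higher (113 and 174.5 CPM) and Il6 lower (20 and 8 UMIs).

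The genes whose levels ran most closely with each member were found over 27 class and library units of at least 30 cells, by Pearson r of log2(CPM + 10) among 16095 genes. These are descriptions over units that share libraries and depth. Ccl12 ran with the macrophage genes Ms4a7 (r 0.975), C1qc (0.967) and C1qa (0.958). Ccl8 ran with Folr2 (0.932), Ccl12 (0.931) and Cbr2 (0.929), and Ccl7 with Ccl8 (0.877), 5033421B08Rik (0.855) and Gm29686 (0.852). Ccl6 ran with Klra2 (0.981), F10 (0.975) and Arl11 (0.974), and Ccl9 with Tfec (0.970), Tlr8 (0.964) and Arl11 (0.953). Ccl24 ran with Fcrlb (0.934), F7 (0.924) and Atp6v0d2 (0.914). Ccl2 ran with Dab2 (0.865), Pla2g4a (0.856) and Fzd7 (0.846). The partners of Ccl2 and Ccl7 were weaker than those of the other ligands. Ccr2 ran with Otulinl (0.902) and Jarid2 (0.839).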

How the data were processed

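The files were filtered gene-by-barcode matrices, 1 per genotype. They held raw UMI counts deposited by the authors without normalisation. The file headers name Cell Ranger 8.0.0, while the submitters' processing notes name version 3.1.3 and build mm10. Barcodes under 500 genes or over 15% mitochondrial UMIs were dropped, and doublets called by Scrublet (1.27% and 3.155%) were removed. Scanpy 1.11.5 clustered the cells (2000 variable genes without the 8 genes described, 30 components, Leiden resolution 1, subsets 0.5). Clusters were named from fixed marker lists by a rule that was relaxed after the clusters were seen. Counts were summed per class and library, and shares of cells were taken after thinning to 1000 UMIs. Ratios have exact conditional intervals at 95%, tested on simulated data. No test between groups was possible, and 13 alternatives were planned. The named genes were all 8 members, read genes of the other lists and the 3 genes most like each member, of which 1 is not reported here. The members and lists were chosen with earlier results of these data known.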

Additional observations from a re-analysis of the deposited data

Results flagged for a closer look

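In the main cell grouping, Ccl6, Ccl9 and Ccl24 were higher in the neutrophil-like class of the knockout library and lower in some other classes. None of these differences between classes was tested, since each class had 1 library per genotype. The log2 ratio of Ccl6 was 2.68 above that in fibroblast-like cells and 2.30 above that in monocyte/macrophage-like cells. For Ccl9 the log2 ratio in neutrophil-like cells was 4.605 above that in epithelial/tumour-like cells, 3.901 above that in fibroblast-like cells and 3.67 above that in monocyte/macrophage-like cells. These gaps moved with the cell grouping: neutrophil-like Ccl9 was 1.76- to 57.2-fold higher over the alternatives, and tumour-cell Ccl9 had a ratio of 0.998 when doublets were kept. For Ccl24 it was 6.68 above that in epithelial/tumour-like cells and 6.325 above that in monocyte/macrophage-like cells, with 1 control UMI and 21 knockout UMIs in neutrophil-like cells.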

How the results depend on the processing

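Of 327 log2 ratios recomputed under alternatives, 222 moved by less than their interval, 103 moved further and 2 that had been called changed sign. Both were Ccl24 in fibroblasts, at a log2 ratio of 0.0249 when cells were averaged and 0.0551 without the 5 richest cells. Ratios inside 1.5-fold also changed sign: with the strict filter macrophage Ccl7, Ccl12 and Ccl8 were at 0.53, 0.28 and 0.36, and with doublets kept tumour-cell Ccl6 was at 0.94. Counts of genes are listed where they moved by over 1.5 times. In macrophages 1 gene was higher and 3 were lower: the strict filter gave 2 higher (Ccl2 and Ccr2) and 0 lower, the 2-fold threshold gave 0 higher, and equal subset weights gave 0 higher. Both Leiden resolution 2 and the 2-fold threshold left 2 lower, without Ccl9. In fibroblasts, where 1 gene was higher and 7 were lower, at least 50 UMIs gave 0 higher and 5 lower, the 2-fold threshold left 6 lower, and leaving out the 5 richest cells gave 0 higher and 3 lower. In tumour cells, where 1 gene was higher and 2 were lower, the loose filter gave 0 higher, doublets kept gave 3 higher and 1 lower, Leiden resolution 0.5 gave 2 higher, averaging cells gave 3 higher, the 2-fold threshold gave 0 higher, and leaving out the 5 richest cells gave 4 higher. In neutrophil-like cells, where 1 gene was lower, the strict filter, at least 50 UMIs and leaving out the 5 richest cells gave 0 lower. The marker levels of macrophages under the strict filter are given above, and the cause was not tested for any of these moves. All 32 shares of macrophages with a UMI moved beyond their intervals when cells were thinned to 2000 UMIs or not thinned, as more UMIs per cell were read. The number of genes highest in macrophages, 7 in the control and 6 in the knockout library, did not move by over 1.5 times under any alternative run. The order of macrophages and neutrophil-like cells in knockout Ccl6 did change, as given above. The alternatives without the 5 richest cells, without the Tbx15-led cluster and with equal tumour cluster weights were chosen after seeing the data. No paired analysis was possible because each group had 1 library, and no replicate could be left out. Depth limits Ccl12, Ccl6, Ccl9, Ccl24 and Ccr2 outside myeloid and lymphoid cells to small UMI counts.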

Other observations

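Neutrophil-like cells differed between the libraries in further CC ligands. Ccl3 had 1119 CPM in the control and 4001 CPM in the knockout library (3.575-fold higher), and Ccl4 had 1585 and 8042 CPM (5.075-fold higher). All 8 interferon-response genes were higher there, among them Cxcl10 (89.6 and 578 CPM) and Rsad2 (551 and 3196 CPM). Of 7 inducers and NF-kB feedback genes read, 6 were higher, including Tnf (219 and 630 CPM) and Nfkbia (1206.5 and 3198 CPM). Ccrl2, a receptor that presents chemerin, had 549 and 2187 CPM.

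Mesothelial-like cells were a further source of Ccl7 and Ccl24 in the control library. Ccl7 had 189 CPM there (941 UMIs) and 31.2 CPM in the knockout library (15 UMIs). Ccl24 had 42.7 and 8.31 CPM. The class held 261 control and 52 knockout cells, so the knockout values rest on few cells.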
